A study of Mus musculus with 72 samples.

Results

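The IgLON family is a small set of neuronal cell surface proteins, and its 5 genes in this mouse brain series were *Opcml*, *Lsamp*, *Ntm*, *Negr1* and *Iglon5*. The members were the rows of the deposited count table whose gene ID carries 1 of these 5 symbols in the name column of the deposited comparison tables. All 5 were found, of 55401 gene rows, and all 5 passed the filter on low counts in every comparison. The rows were matched by name and not by a measured value, but the members were chosen with earlier results of these data known.

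IgLON proteins carry immunoglobulin-like domains and are held on the outer face of the membrane by a lipid (GPI) anchor, with no part inside the cell. They bind each other in like and unlike pairs across and along membranes, and membrane proteases can release them. *Opcml* encodes the opioid-binding protein and cell adhesion molecule, which was isolated through its binding of opioid ligands and is no G protein-coupled opioid receptor. *Lsamp* encodes the limbic system-associated membrane protein, *Ntm* encodes neurotrimin and *Negr1* encodes neuronal growth regulator, and all are known for roles in neurite outgrowth or synapse formation. *Iglon5* is the member known as the target of autoantibodies in a human sleep disorder.

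Each of the 72 libraries, in 12 groups, held RNA of the right hemisphere of a C57Bl/6 pup (substrain C57Bl/6NTac in the study's methods), tissue that the submitters' design text calls cortex. PND1 pups were born to dams whose osmotic minipump gave morphine, an opioid agonist, at 10 mg/kg/day, or saline, and were taken 6 h after they were found. In the PND14 window the pups themselves got injections after birth, of morphine at 10 mg/kg or of saline, up to day 14. In the 3-Tri window both the dam's pump and the pup's injections were used, and pups of both later windows were taken 6 h after the last injection. The labels give no day for 3-Tri pups, and the design text and the study's methods differ by a day on the end of the injections. At PND1 there were 4 morphine libraries with the female label, 6 with the male label, and 7 with saline for either label, and every other group held 6. The labels name no transgene, litters are not given for single libraries, and pups of implanted dams were moved to surrogate dams, so p-values measure the spread between pups whose kinship is unknown. In PND14 and 3-Tri, each number that opens a sample ID holds libraries of a single drug, so drug cannot be compared within a number. The labels do not say what the number stands for, and pups that share it may not be independent.

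Library totals ran from 20742862 to 27333125 counts at PND1, from 4407544 to 21404819 at PND14 and from 3113919 to 19938980 at 3-Tri. The shallowest library of PND14, female morphine replicate 4, and that of 3-Tri, male saline replicate 1, stood apart in depth. *Xist* and *Ddx3y*, the sex-specific genes, went against the gender label in 4 libraries of PND1, 0 of PND14 and 12 of 3-Tri, where they were 4 of 6 in each morphine group and 2 of 6 in each saline group. No library was moved, "female" and "male" below mean the label, and every 3-Tri result rests on groups whose labels are in doubt. All 5 neuronal markers (*Rbfox3*, *Snap25*, *Syt1*, *Map2*, *Tubb3*) and the cortical excitatory markers *Slc17a7* and *Neurod6* were present in every library. The 6 listed *Hox* genes of the hindbrain and spinal cord summed to 0 to 38.7 CPM (a gene's count per 1e+06 counts of its library, scaled by edgeR's TMM factors) in PND1 morphine libraries and to 0 to 18.1 CPM in PND1 saline libraries, against at most 0.26 CPM in any later library. They passed 5 CPM in 4 of 6 male and 1 of 4 female morphine libraries of PND1, and in 2 of 7 male and 3 of 7 female saline libraries.

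The genes differ most in size and base composition. On mm10 (GENCODE M21), *Opcml* (ENSMUSG00000062257.13) spans 1134.636 kb of chromosome 9, from 27790775 to 28925410 on the plus strand. *Ntm* (ENSMUSG00000059974.10) spans 968.392 kb of the same chromosome, from 28994750 to 29963141 on the minus strand, and its end faces that of *Opcml* across 69.34 kb. *Lsamp* (ENSMUSG00000061080.11) spans 2197.319 kb of chromosome 16, from 39984361 to 42181679 on the plus strand. *Negr1* (ENSMUSG00000040037.13) spans 754.652 kb of chromosome 3, from 156561794 to 157316445 on the plus strand. *Iglon5* (ENSMUSG00000013367.5) is compact, with 17.172 kb of chromosome 7 from 43472904 to 43490075 on the minus strand. GC content was taken from the longest transcript of each gene. It was 42.87% to 43.7% for the 4 long genes and 60.22% for *Iglon5*, against a median of 49.4% over the genes tested at PND1. No member shares exonic bases with another annotated gene.

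The stretch before the start of transcription differs too. RefSeq gave at least 1 start for each of the 5 members, and 2 starts each for *Ntm* and *Lsamp*. The 150 bases before the start on GRCm38.p6 are shown for *Opcml* and *Negr1*, which were called higher with morphine at PND1, and for *Iglon5*, which was not. RefSeq and GENCODE starts differ: the *Opcml* window, both *Ntm* windows and the second *Lsamp* window lie inside the gene as GENCODE draws it, the *Iglon5* window lies wholly before it, and the *Negr1* window ends right before its first base. Each runs 5′ to 3′ on the gene's own strand, and capitals mark the CG dinucleotides.
Opcml, chr9:27791149-27791298, plus strand: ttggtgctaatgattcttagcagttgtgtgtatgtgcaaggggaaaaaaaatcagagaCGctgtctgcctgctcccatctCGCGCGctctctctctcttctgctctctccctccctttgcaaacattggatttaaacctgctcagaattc
Negr1, chr3:156561644-156561793, plus strand: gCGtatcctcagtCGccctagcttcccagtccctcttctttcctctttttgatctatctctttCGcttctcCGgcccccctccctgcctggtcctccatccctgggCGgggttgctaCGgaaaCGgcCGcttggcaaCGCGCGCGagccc
Iglon5, chr7:43490212-43490361, minus strand: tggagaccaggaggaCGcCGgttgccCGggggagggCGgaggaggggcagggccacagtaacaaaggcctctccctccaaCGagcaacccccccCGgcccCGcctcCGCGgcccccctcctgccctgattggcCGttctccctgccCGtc
*Opcml* has 4 CG dinucleotides and 47.33% G and C, *Negr1* has 12 and 62.67%, and *Iglon5* has 11 and 73.33%. Over 32851 RefSeq promoters of this length the medians were 4 and 54.0%, so *Negr1* resembles *Iglon5* here and not *Opcml*. The GC box, GGGCGG on either strand, is in 28.62% of all promoters and in those of *Iglon5*, *Negr1* and 1 of the 2 *Ntm* starts. The core of the cyclic AMP response element, TGACG on either strand, is in 13.32% and here only in the second *Lsamp* start, while TATAAA (7.57%) and CACGTG (4.3%) are in none of the members' windows. A match of letters is a description and not a binding site.

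At PND1 the 4 long members were higher after morphine in utero, and *Iglon5* was not. With both gender labels together, edgeR called 4 of 5 members, all 4 higher, where 16.8% of the 21714 genes tested were called. The median log2 fold change of the members was 0.15, and that of all genes was 0.01. *Opcml* changed most, by a log2 fold change of 0.24 (SE 0.0318, adjusted p = 4.89e-05 from edgeR), which is 1.18-fold. *Lsamp* rose by 0.22 (SE 0.0405, adjusted p = 0.000952), *Ntm* by 0.15 (SE 0.0284, adjusted p = 0.00101) and *Negr1* by 0.15 (SE 0.0299, adjusted p = 0.00162). *Iglon5* had a log2 fold change of -0.00311 (SE 0.0324, adjusted p = 0.962).

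The levels of *Opcml* at PND1 did not overlap between the drugs. The 4 female morphine libraries held 116, 122, 118 and 119 CPM, and the 7 female saline libraries ran from 97.2 to 108 with a median of 101. The 6 male morphine libraries ran from 108 to 129 with a median of 120, and the 7 male saline libraries from 91.9 to 107 with a median of 99.6. Every one of the 10 morphine libraries was above every one of the 14 saline libraries, with means of 119 ± 5.78 CPM (SD, n = 10) and 101 ± 4.94 CPM (SD, n = 14). Over both labels 16.8% of the genes tested were called at PND1. The share of all genes whose libraries separate in this way is not given, here or for the range counts that follow. The lowest morphine library, male replicate 5, was close to the highest saline library, at 108.2 against 107.6 CPM, and it is among the libraries with *Xist* or *Ddx3y* of the other label.

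The other long members overlapped a little. *Lsamp* had 309, 289, 318 and 319 CPM in the female morphine libraries and 251 to 293 in the female saline libraries, with a median of 278. In the male libraries *Lsamp* ran from 296 to 363 with morphine (median 319) and from 259 to 310 with saline (median 269). In all, 7 of 10 morphine libraries were above the highest saline library for *Lsamp*, 9 of 10 for *Ntm* and 5 of 10 for *Negr1*, and all 10 were above the saline median for each of these genes. *Ntm* averaged 248 ± 12.4 CPM with morphine and 222 ± 8.99 CPM with saline (SD, n = 10 and 14). *Negr1* averaged 260 ± 14.3 and 233 ± 10.9 CPM in the same libraries. *Iglon5* averaged 106 ± 7.02 CPM with morphine and 107 ± 4.64 CPM with saline, and 2 of 10 morphine libraries were above all saline libraries while 1 was below them.

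**Figure D1:**
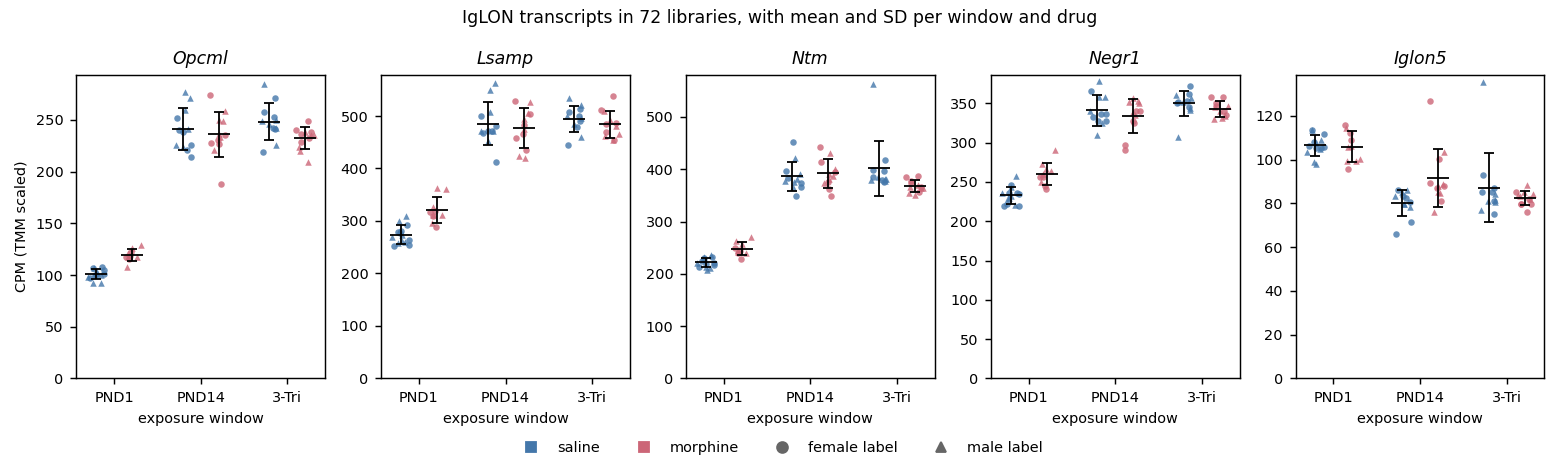
CPM of each IgLON member in each of the 72 libraries (points; blue saline, red morphine, circles female label, triangles male label), by exposure window and drug, with the mean and SD as bars. The 10 PND1 morphine libraries of Opcml sit above all 14 saline libraries, and Iglon5 is the member that is lower at PND14 than at PND1.

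By gender label the sizes were alike and the calls were not. In the male label, 4 of 5 members were called, all higher, where 14.4% of genes were called: *Opcml* at 0.28 (SE 0.0424, adjusted p = 0.000326), *Lsamp* at 0.25 (SE 0.0540, adjusted p = 0.0035), *Ntm* at 0.19 (SE 0.0378, adjusted p = 0.00188) and *Negr1* at 0.18 (SE 0.0398, adjusted p = 0.00381), all log2 fold changes from edgeR. *Iglon5* was at -0.01 (SE 0.0431, adjusted p = 0.897). In the female label edgeR called 0 of 5 members and 0% of genes, with 4 members and 2547 genes at an unadjusted p under 0.05, and DESeq2 called *Opcml* and 138 genes. The female log2 fold changes were 0.21 for *Opcml* (SE 0.0476), 0.19 for *Lsamp* (SE 0.0606), 0.12 for *Negr1* (SE 0.0448), 0.11 for *Ntm* (SE 0.0426) and 0.00456 for *Iglon5* (SE 0.0485), with edgeR adjusted p-values from 0.14 to 0.983. The difference between the labels was itself tested, and the male minus female drug effect ran from -0.02 (SE 0.0649) for *Iglon5* to 0.08 (SE 0.0571) for *Ntm*. It was called for 0 of 5 members by edgeR and by DESeq2, with 0 at an unadjusted p under 0.05, and for 0% of all genes, 1187 of which had an unadjusted p under 0.05.

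Base composition moved with the drug at PND1. In each library, the deviation of each gene from its mean was set against its GC content, and the r across genes averaged -0.34 ± 0.202 (SD, n = 6) in male morphine, 0.04 ± 0.0299 (n = 4) in female morphine, 0.07 ± 0.173 (n = 7) in male saline and 0.22 ± 0.0567 (n = 7) in female saline libraries. In the male comparison, genes of 42 to 45% GC, the range of the long members, had a median log2 fold change of 0.08, with 11.8% called higher and 1.13% called lower. Among those above 50 CPM, as the members are, 22.0% were called higher. Genes of 59 to 62% GC, the range of *Iglon5*, had a median of -0.16, with 31.6% called lower and 0.102% called higher. The long members, at 0.18 to 0.28, and *Iglon5*, at -0.01, were each above the median of genes of like composition.

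With a correction of each library for GC content and exonic length, the values came closer together and *Iglon5* joined the members called. edgeR then called 8.97% of genes over both labels and 5.64% in the male label, against 16.8% and 14.4% without the correction. Over both labels *Opcml* was then at 0.15 (adjusted p = 0.000837), *Lsamp* at 0.12 (adjusted p = 0.0132) and *Iglon5* at 0.12 (adjusted p = 0.0124), while *Ntm* at 0.08 (adjusted p = 0.107) and *Negr1* at 0.07 (adjusted p = 0.116) were no longer called by edgeR. In the male label the corrected log2 fold changes were 0.17 for *Opcml* (adjusted p = 0.00468), 0.15 for *Lsamp* (adjusted p = 0.0356) and 0.15 for *Iglon5* (adjusted p = 0.0286), and *Ntm* (0.10) and *Negr1* (0.08) lost their calls. Of the 10 morphine libraries, 5 had an r within the saline range of -0.16 to 0.28. Their r ran from 0.01 to 0.08, a stretch without saline libraries, the nearest of which had -0.04 and 0.13. The *Opcml* levels of these 5 morphine libraries, 108.2 to 122 CPM, were all above the saline libraries, as were 4 of 5 for *Ntm*, 2 of 5 for *Lsamp* and 0 of 5 for *Negr1*. How far the trend enters the members' differences was not tested.

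**Figure D2:**
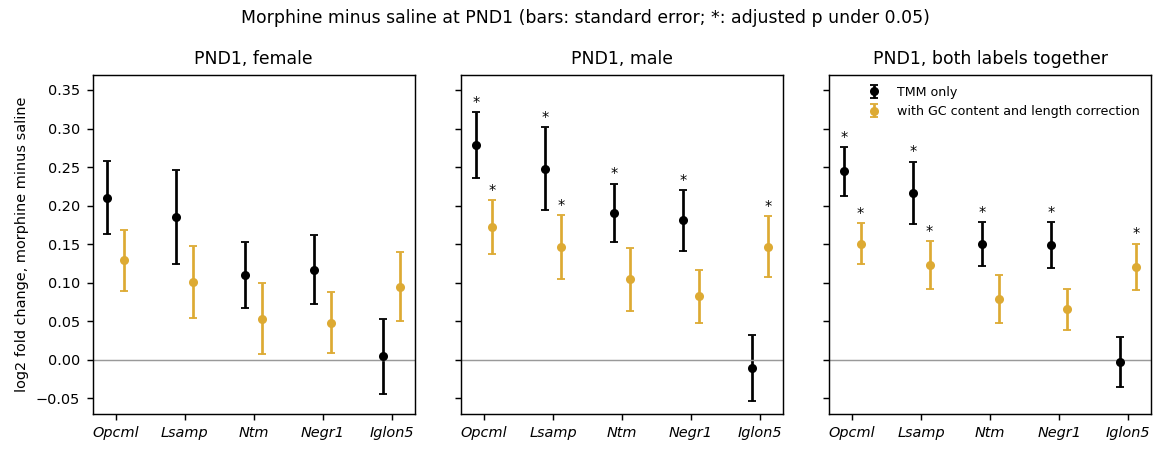
Log2 fold change, morphine minus saline, of the 5 members at PND1 by gender label and for both labels together, with TMM scaling alone (black) and with a correction for GC content and length (yellow). Bars are standard errors and stars mark an edgeR adjusted p under 0.05. For both labels Opcml is at 0.24 without and 0.15 with the correction, and Iglon5 at -0.00311 and 0.12.

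**Figure D3:**
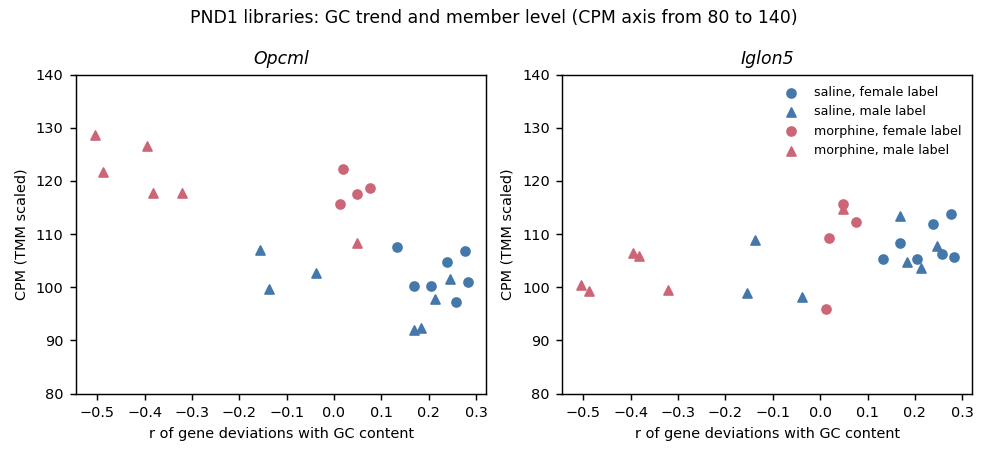
CPM of Opcml and Iglon5 (y axis, from 80 to 140) in the 24 PND1 libraries against the r of gene deviations with GC content (x axis; blue saline, red morphine, circles female label, triangles male label). Of the male morphine libraries, 5 of 6 lie left of all saline libraries. The 5 morphine libraries within the saline range lie at r from 0.01 to 0.08, where there is no saline library. They hold more Opcml than any saline library, and the part of the trend in this was not tested.

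Cell type markers of the PND1 libraries were summed as well. The summed level of the 5 neuronal markers was 2329 to 2660 CPM with saline and 2449 to 2801 CPM with morphine, with 2 of 5 called higher and 1 called lower. The 4 astrocyte markers summed to 315 to 471 CPM with saline and 378 to 557 CPM with morphine, with 1 of 4 called higher, and of the 4 oligodendrocyte markers 0 were called by edgeR, at 94.4 to 145 and 107 to 163 CPM. Single markers were called among the excitatory (1 of 3, lower), inhibitory (1 of 3, higher), endothelial (1 of 3, lower) and erythroid (1 of 5, lower) lists, and edgeR called 0 of the precursor, microglia, choroid plexus, progenitor, hindbrain and cerebellum markers. The part of these cells in the members' values was not tested. In bulk tissue, fewer cells of a type and less RNA per cell cannot be told apart. Without the 10 PND1 libraries above 5 CPM of *Hox* genes, a choice made after seeing the data, 4 of 5 members were still called for both labels, where 9.27% of genes were, with *Opcml* at 0.28 (adjusted p = 0.000484). In the male label, where 2 morphine libraries were left and 2.49% of genes were called, only *Opcml* was called of the members, at 0.30 (adjusted p = 0.0108), and the others were at 0.23 for *Lsamp*, 0.19 for *Negr1* and 0.14 for *Ntm*. When the 4 libraries with sex genes of the other label were left out, *Opcml*, *Lsamp*, *Ntm* and *Negr1* were called for both labels together and in the male label, with *Opcml* at 0.26 and 0.30. There 16.1% of genes were called over both labels and 17.6% in the male label. Leaving out any of the 24 PND1 libraries in turn kept all 4 calls, with *Opcml* between 0.23 and 0.26 for both labels. In the male label the share of genes called then ran from 8.59% to 22.8%.

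In saline pups, all 5 members differed between PND1 and PND14. From PND1 to PND14, edgeR called all 5 members, 4 higher and 1 lower, where 84.9% of the 22010 genes tested were called. *Opcml* rose 2.45-fold, a log2 fold change of 1.29 (SE 0.0393, adjusted p = 2.87e-42). *Lsamp* rose by 0.86 (SE 0.0389), *Ntm* by 0.83 (SE 0.0411) and *Negr1* by 0.59 (SE 0.0261) on the log2 scale, with adjusted p-values of 6.41e-32, 8.24e-30 and 2.19e-32. *Iglon5* fell by 0.37 on the log2 scale (SE 0.0530, adjusted p = 1.91e-09). Window, day and postnatal treatment differ together between these groups, since the PND14 pups had been injected and the PND1 pups had not, and their parts cannot be told apart. Cohort, handling and sequencing cannot be told apart from them either. Cell type markers moved with the same step: the 4 oligodendrocyte markers summed to 94.4 to 145 CPM at PND1 and 3274 to 4898 CPM at PND14 (4 of 4 higher), the 4 astrocyte markers to 315 to 471 and 1071 to 1377 CPM (3 of 4 higher), and the 3 microglia markers to 101 to 113 and 234 to 273 CPM (3 of 3 higher). The 5 neuronal markers summed to 2329 to 2660 and 3804 to 4324 CPM (3 higher, 2 lower), and of the 4 progenitor markers 3 were lower, with a median log2 fold change of -1.44. All 4 hindbrain *Hox* genes tested were lower, with a median of -6.16. Of the cerebellum markers 1 was higher and 3 lower, and of the excitatory and the choroid plexus markers 1 was higher and 2 lower each. The inhibitory, precursor and endothelial markers were all higher, and the erythroid markers all lower. Their part in the members' step was not tested.

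The saline ranges at the 2 ages did not overlap for any member. Of all genes tested, 84.9% were called at this step, and the share with ranges apart is not given. *Opcml* ran from 91.9 to 108 CPM in the 14 saline libraries of PND1 (median 101) and from 214 to 277 CPM in the 12 of PND14 (median 239). *Lsamp* went from 251 to 310 CPM (median 271) to 412 to 563 CPM (median 472), and *Ntm* from 208 to 237 CPM (median 221) to 349 to 452 CPM (median 380). *Negr1* showed the smallest of the 4 steps, from 219 to 258 CPM (median 234) to 310 to 379 CPM (median 337). *Iglon5* went the other way, from 98.2 to 114 CPM (median 106) to 65.9 to 86.2 CPM (median 81.6), so that every PND14 library was below every PND1 library. The step was there in each gender label, with log2 fold changes for *Opcml* of 1.21 (SE 0.0555) in the female and 1.37 (SE 0.0556) in the male label, and for *Iglon5* of -0.43 (SE 0.0751) and -0.32 (SE 0.0747).

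In saline libraries of 3-Tri against PND1, all 5 members were called, 4 higher and 1 lower, where 85.1% of genes were called. The log2 fold changes were 1.33 (SE 0.0394) for *Opcml*, 0.89 (SE 0.0411) for *Ntm*, 0.88 (SE 0.0389) for *Lsamp*, 0.62 (SE 0.0261) for *Negr1* and -0.28 (SE 0.0531) for *Iglon5*. The ranges did not overlap for the 4 long members, and for *Iglon5* 11 of 12 libraries were below all of PND1 while the library of low depth, at 135 CPM, was above them all. These values share the PND1 saline libraries with the comparison before. Between the saline groups of 3-Tri and PND14, edgeR and DESeq2 called 0 of 5 members, with 0 at an unadjusted p under 0.05, and log2 fold changes ran from 0.03 (SE 0.0404) for *Lsamp* to 0.10 (SE 0.0561) for *Iglon5*. edgeR called 0% of all genes there, with 723 at an unadjusted p under 0.05, and DESeq2 called 4.

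Per length, the order of the members differed between PND1 and PND14. In PND1 saline libraries, CPM per kb of exon was 40.6 ± 1.77 for *Iglon5*, 27.5 ± 1.11 for *Ntm*, 22.2 ± 1.04 for *Negr1*, 15.9 ± 1.03 for *Lsamp* and 6.94 ± 0.340 for *Opcml* (SD, n = 14), and no range met its neighbour's. In PND14 saline libraries it was 47.8 ± 3.40 for *Ntm*, 32.5 ± 1.88 for *Negr1*, 30.6 ± 2.31 for *Iglon5*, 28.2 ± 2.38 for *Lsamp* and 16.6 ± 1.40 for *Opcml* (SD, n = 12). There *Negr1*, *Iglon5* and *Lsamp* overlapped in range, *Ntm* stayed above and *Opcml* below. *Iglon5* thus made up 35.9% ± 1.32 of the family's summed CPM per kb at PND1 and 19.7% ± 1.64 at PND14 in saline pups, and *Opcml* made up 6.14% ± 0.299 and 10.6% ± 0.503. The sum itself went from 113 ± 3.34 to 156 ± 7.06 CPM per kb. These lengths are unions of all annotated exons, so a level per kb is lowered where long exons are little used.

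**Figure D4:**
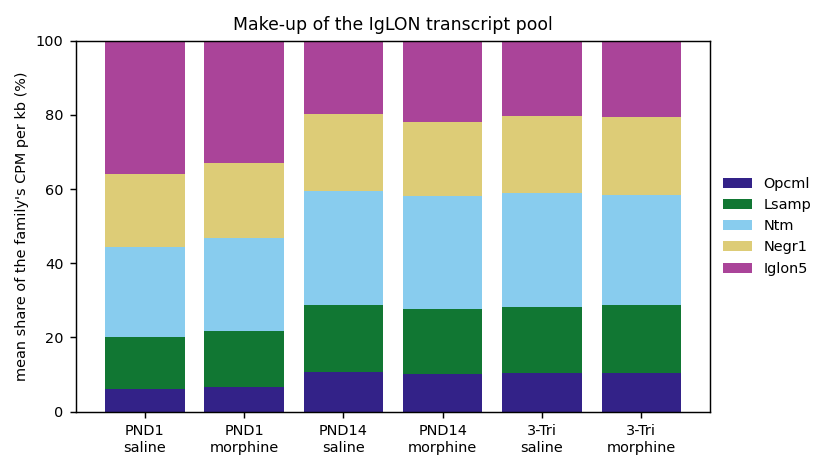
Mean share (%) of each member in the summed CPM per kb of the family, by exposure window and drug (n = 10 to 14 libraries a bar). Iglon5 is the largest share at PND1, 35.9% with saline, and Ntm is the largest at PND14 and 3-Tri, 30.7% and 30.6% with saline.

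At PND1 the mean shares differed a little between the drugs. *Iglon5* made up 32.9% ± 2.02 of the family's CPM per kb with morphine (SD, n = 10), and *Opcml* made up 6.71% ± 0.319. The number of *Opcml* counts per *Iglon5* count, both in CPM, was 1.13 ± 0.104 with morphine, 0.948 ± 0.0675 with saline, and 3.02 ± 0.385 in saline pups of PND14. With the correction for GC content and length, the PND1 log2 fold changes of *Opcml* and *Iglon5* were closer together, as given above. These shares were not tested, and neither was the part of the GC trend or of age in them.

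In the PND14 window edgeR called no member after postnatal morphine, and DESeq2 called *Iglon5* over both labels. edgeR called 0 of 5 members in the female label (0% of genes), 0 of 5 in the male label (0.28% of genes) and 0 of 5 over both labels (1.69% of genes). *Iglon5* was the member with an unadjusted p under 0.05 in the female label (log2 fold change 0.28, SE 0.0872, edgeR adjusted p = 0.328) and over both labels (0.19, SE 0.0612, edgeR adjusted p = 0.107). DESeq2 put *Iglon5* at 0.20 over both labels (adjusted p = 0.0452), where DESeq2 called 657 genes and edgeR 332. DESeq2 called 0 members in each label alone. In the male label 0 members had an unadjusted p under 0.05, and *Iglon5* was at 0.10 (SE 0.0859).

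*Iglon5* ran from 81.2 to 127 CPM in the PND14 female morphine libraries (median 88.5) and from 65.9 to 86.0 CPM in the female saline libraries (median 81.6). The 127 CPM belong to the library of low depth, and without it the log2 fold change was 0.20 in the female label (adjusted p = 0.499) and 0.15 over both (adjusted p = 0.134). In all, 8 of 12 morphine libraries were above the highest of 12 saline libraries. *Opcml* ran from 188 to 274 CPM with morphine and from 214 to 277 CPM with saline, and its log2 fold change over both labels was -0.02 (SE 0.0488, adjusted p = 0.898). *Lsamp* was at -0.01 (SE 0.0446), *Negr1* at -0.02 (SE 0.0303) and *Ntm* at 0.03 (SE 0.0443), all with ranges that overlapped. The male minus female difference was called by edgeR and DESeq2 for 0 of 5 members, with 0 at an unadjusted p under 0.05, and for 0% of genes.

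In the 3-Tri window edgeR called 0% of genes in each label, over both labels and for the difference between labels, and DESeq2 called 0 as well. No member was called by either tool. Over both labels *Ntm* was at -0.13 (SE 0.0511) and *Opcml* at -0.10 (SE 0.0377), each with an edgeR adjusted p of 0.97, and these 2 members had an unadjusted p under 0.05. In the male label the same genes were at -0.19 (SE 0.0724) and -0.14 (SE 0.0534), again with an unadjusted p under 0.05, and in the female label and the difference between labels 0 members had an unadjusted p under 0.05. For *Ntm*, 9 of 12 morphine libraries were below the lowest of the 12 saline libraries, with 350 to 388 CPM (median 366) against 376 to 563 CPM (median 383). The highest saline value belongs to the library of low depth, and without it *Ntm* and *Opcml* were each at -0.07 over both labels. *Lsamp* and *Negr1* were each at -0.03 (SE 0.0328 and 0.0219), and *Iglon5* at -0.06 (SE 0.0610).

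The drug effect was then compared between windows in 1 fit of all 72 libraries. It was lower at PND14 than at PND1 for 3 of 5 members where 13.3% of genes were called: *Opcml* by -0.27 (SE 0.0582, adjusted p = 0.00118), *Lsamp* by -0.23 (SE 0.0578, adjusted p = 0.00433) and *Negr1* by -0.17 (SE 0.0388, adjusted p = 0.00162). *Ntm* was at -0.12 (SE 0.0611, adjusted p = 0.195) and *Iglon5* at 0.19 (SE 0.0785, adjusted p = 0.0958). With the correction for GC content and length, 0 of 5 members were called there by edgeR, and *Opcml* was at -0.12 (adjusted p = 0.131).

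Between 3-Tri and PND1 the drug effect was lower for 4 of 5 members where 8.43% of genes were called, at -0.34 (SE 0.0581) for *Opcml*, -0.28 (SE 0.0610) for *Ntm*, -0.25 (SE 0.0577) for *Lsamp* and -0.18 (SE 0.0388) for *Negr1*. Both of these differences use the same PND1 libraries. When all libraries with sex genes of the other label were left out, only *Opcml* was called, at -0.35 (adjusted p = 0.0465), and with the correction for GC content and length *Opcml* at -0.23 and *Ntm* at -0.20 were. Between 3-Tri and PND14 the drug effect was called for 0 of 5 members by edgeR and DESeq2 where 0.182% of genes were called, with *Iglon5* at -0.25 (SE 0.0791, adjusted p = 0.261) and *Ntm* at -0.16 (SE 0.0604, adjusted p = 0.382), the 2 members with an unadjusted p under 0.05.

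Within groups, the members did not all vary together. Over the 72 libraries, after the mean of each group was taken off, log2 CPM of *Opcml* and *Lsamp* had an r of 0.74, *Ntm* and *Iglon5* 0.59, and *Opcml* and *Ntm* 0.55, while *Negr1* and *Iglon5* had -0.50. The last of these was -0.20 within PND1, -0.52 within PND14 and -0.74 within 3-Tri, where the library of low depth holds the highest *Iglon5* and the lowest *Negr1* of its group. *Ntm* and *Iglon5* had 0.27 within PND1, 0.34 within PND14 and 0.88 within 3-Tri, where the same library is highest in its group for both. *Opcml* and *Ntm* had 0.16, 0.66 and 0.63 in the same order of windows, and *Opcml* and *Lsamp* had 0.65, 0.80 and 0.78. These libraries share depth and GC differences, so the coefficients are descriptions. Over the 12 group means the 4 long members had r values from 0.98 to 1.00 with each other and from -0.93 to -0.89 with *Iglon5*. This is the difference between PND1 and the later windows seen again.

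The genes that varied most like each member within groups were sought among 14757 protein-coding genes with a mean above 1 CPM. For *Opcml* they included *Prkcb* (r = 0.77), a protein kinase C, and *Pde4d* (r = 0.76), a cyclic AMP phosphodiesterase. For *Lsamp* they were *Epha6* (r = 0.84), an ephrin receptor, *Cntnap2* (r = 0.84) and *Nrxn3* (r = 0.82), of the neurexin superfamily. *Spock1*, a matrix proteoglycan, led for *Ntm* both within groups (r = 0.83) and over the 12 group means (r = 1.00), followed within groups by *Strap* (r = 0.82) and *Arl14ep* (r = 0.79). For *Negr1* they were *Mapk9* (r = 0.72), *Tbc1d24* (r = 0.72) and *Rnf217* (r = 0.70), and for *Iglon5* *Gm49333* (r = 0.83), *Camk2n2* (r = 0.81) and *Syndig1l* (r = 0.79). The genes nearest to *Iglon5* hold 53.6%, 63.9% and 59.5% G and C, and those nearest to *Lsamp* hold 48.0%, 44.5% and 47.5%. No member was among the 3 genes nearest to another.

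Over the 12 group means, *Fam189a1*, *Chrm3* and *Gpd2* were nearest to *Opcml*, and *Dpp6*, *Aig1* and *Arhgap6* to *Lsamp*, all at r = 1.00. *Cadm2*, another adhesion gene, followed *Spock1* for *Ntm*, and *Enpp5* and *Fam135b* were among the nearest to *Negr1*, all again at r = 1.00. *Iglon5* had *Myl6b*, *Tmem117* and *Ggnbp1*, each at r = 0.98.

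Of the other neural adhesion genes of the GPI-anchored and immunoglobulin kinds, 17 were listed and tested. At PND1 over both labels 7 of 17 were called higher and 1 lower, where 16.8% of all genes were called, with a median log2 fold change of 0.13 against 0.01 over all genes. The GC trend described above runs through these libraries too, and its part in these calls was not tested. *Cadm2* (0.20, SE 0.0443, adjusted p = 0.00365) and *Cntn6* (0.17, SE 0.0407, adjusted p = 0.0056), a contactin, were the higher ones with the smallest p, and *Cadm4* (-0.29, SE 0.0483, adjusted p = 0.000353), a cell adhesion gene of myelinating contacts, was the lower one. In the male label 5 of 17 were higher and 1 lower (14.4% of all genes called), and in the female label edgeR called 0 of 17, with 4 at an unadjusted p under 0.05 and a median of 0.11. From PND1 to PND14 in saline pups, 11 of 17 rose and 6 fell, where 84.9% of all genes were called. *Thy1*, which encodes a small GPI-anchored neuronal protein, rose by 3.47 (SE 0.0685) and *Cntn1* by 1.35 (SE 0.0346) on the log2 scale, and *Cntn2* fell by 1.56 (SE 0.0501) and *Chl1* by 0.90 (SE 0.0427). At PND14 *Nfasc*, an axon initial segment and node adhesion gene, was the single gene of the 17 called over both labels (-0.26, SE 0.0550, adjusted p = 0.0163), and at 3-Tri edgeR called 0 of 17, with 3 at an unadjusted p under 0.05.

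Among the proteases and receptors listed as partners, edgeR called none at PND1. *Adam10* and *Adam17*, membrane proteases that shed surface proteins, were at -0.00166 (SE 0.0318) and 0.07 (SE 0.0400) at PND1 over both labels, where edgeR called 0 of 2, with 0 at an unadjusted p under 0.05. Of the receptors *Fgfr1*, *Fgfr2*, *Epha2*, *Erbb2* and *Axl*, edgeR called 0 of 5 at PND1, with log2 fold changes over both labels from -0.19 (SE 0.119) for *Epha2* to 0.01 (SE 0.0468) for *Axl*, and 0 at an unadjusted p under 0.05. From PND1 to PND14 in saline pups, 3 of 5 receptors rose and 2 fell, where 84.9% of all genes were called. They were led by *Axl* at 0.95 (SE 0.0400) and *Erbb2* at -0.96 (SE 0.0760).

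*Oprm1*, the mu receptor on which morphine acts, averaged 21.9 ± 2.34 CPM in saline and 23.9 ± 4.01 CPM in morphine libraries of PND1, and 75.3 ± 3.78 CPM in saline and 69.9 ± 6.22 CPM in morphine libraries of PND14. *Oprd1*, the delta receptor, was at 2.04 ± 0.389 and 1.99 ± 0.373 CPM at PND1, and *Oprk1*, the kappa receptor, at 6.28 ± 0.857 and 7.21 ± 1.29 CPM. *Oprl1*, the nociceptin receptor, averaged 96.3 ± 5.14 CPM with saline and 87.0 ± 4.88 CPM with morphine at PND1, and 65.7 ± 3.54 CPM in saline pups of PND14 (SD, n = 14, 10 and 12). edgeR called *Oprl1* lower with morphine at PND1 over both labels, at -0.15 (SE 0.0322, adjusted p = 0.00305), where 16.8% of all genes were called. *Oprm1*, *Oprd1* and *Oprk1* were not called there. In the male label, where 14.4% of all genes were called, *Oprk1* was called higher, at 0.39 (SE 0.108, adjusted p = 0.0161). *Oprl1* was there at -0.12 (SE 0.0427, adjusted p = 0.0643). The male minus female drug effect at PND1 was called for 0 of the 4 receptor genes. The part of the GC trend in these calls was not tested. Of the 4 genes *Oprl1* is also the one that was lower at PND14 than at PND1, as *Iglon5* was among the IgLON genes.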

How the data were processed

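The authors deposited 1 table of raw read counts by gene ID, which covers the 72 libraries, with 0 columns of unknown sample and 0 rows without a gene. Per the paper and the submitters' notes, RNA had a RIN above 8 and NEBNext Ultra II paired-end reads were trimmed (Trim Galore 0.6.6), aligned to GRCm38 (mm10) with HISAT2 2.2.1 and counted, after Picard had removed duplicates, by featureCounts 2.0.1 against GENCODE M25. Whether counting used strand is not given in the sources used here, and removal of duplicates can lower the counts of highly expressed genes. The authors' own DESeq2 comparison tables (fold changes and p-values) were used for gene names only.

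Fits ran in R 4.3.3 with edgeR 4.0.16, with DESeq2 1.42.0 and limma 3.58.1 for alternatives, and matplotlib 3.10.9 drew the plots. filterByExpr (minimum count 10, minimum total count 15) and TMM preceded the quasi-likelihood F test over the 4 groups of a window, or over the 12 groups of all 72 libraries where windows were compared. All p-values were adjusted by the Benjamini-Hochberg method across the genes tested, and a call means under 0.05. CPM are TMM scaled, and likeness was taken on log2 CPM with 2 added as prior count. For the lowess correction on GC content and length (span 0.3), both properties came from GENCODE M21, whose IDs matched 55141 of 55401, and promoters from RefSeq. Steps were tested on simulated counts.

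The members, partner lists and tests were chosen with earlier results of these data known. Named genes were all members, up to 2 rising and 2 falling partner genes with the smallest p, the 3 protein-coding genes most like each member, and the opioid receptors by value. Alternatives were other size factors, no filter, DESeq2, leaving out libraries (low depth, against the sex label, each PND1 library, each number that opens a PND14 or 3-Tri sample ID), that number as a random effect, only the groups compared, each gender label alone, the GC and length correction and the replicate block. Leaving out libraries with hindbrain genes was chosen after seeing the data. Replicate libraries differed by more than counting noise in all 183 pairs. Pathways, behavior and qPCR were not analysed here, and some genes that these rules name are not reported here.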

Additional observations from a re-analysis of the deposited data

Results flagged for a closer look

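In 4 of 60 member and group combinations a library was far from the rest by Dixon's test, where chance gives about 1 in 20. In the 3-Tri male saline group, replicate 1, the library of lowest depth in the series, held 563 CPM of *Ntm* against 384 CPM in the next highest library, 135 CPM of *Iglon5* against 84.6 CPM, and 307 CPM of *Negr1* against 342 CPM in the next lowest. In the PND14 female saline group, replicate 11 held 366 CPM of *Negr1* against 337 CPM in the next highest.

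The drug effect differed between windows by the interaction test in edgeR. From PND1 to PND14 it was lower for *Opcml* (-0.27 on the log2 scale), *Lsamp* (-0.23) and *Negr1* (-0.17). From PND1 to 3-Tri it was lower for *Opcml* (-0.34), *Ntm* (-0.28), *Lsamp* (-0.25) and *Negr1* (-0.18). Both sets use the same PND1 libraries, and 13.3% and 8.43% of all genes were called. With the correction for GC content and length, 0 of 5 members were called for PND14 minus PND1 (*Opcml* -0.12, adjusted p = 0.131) and 2 of 5, *Opcml* and *Ntm*, for 3-Tri minus PND1.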

How the results depend on the processing

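Of the members' fold changes recomputed under alternatives, 1393 stayed on their side of the threshold, with the same sign where called, 21 were no longer called, 3 became called with the same sign and 3 became called with the other sign. Cause was not tested for any of them. The last 3 are all of *Iglon5* at PND1, with the GC content and length correction at 0.15 in the male label and 0.12 over both, and at 0.17 over both when the replicate block was added. Uncalled, *Iglon5* also crossed 0 when 1 PND1 library was left out, from -0.02 to 0.02 over both labels, -0.03 to 0.05 in the female and -0.04 to 0.00845 in the male label. DESeq2 called 1 member in the PND1 female label (138 genes) and 1 at PND14 over both labels (657 genes). The GC and length correction left 0 members for the drug effect of PND14 minus PND1 and 2 for 3-Tri minus PND1, and 1 was left for the latter without libraries against their sex label. Without PND1 libraries with hindbrain genes 1 member was called in the male label. *Ntm* became called for PND14 minus PND1 without the libraries of low depth, at -0.14 (edgeR adjusted p = 0.0194).

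Replicate numbers showed little sign of pairing the samples at PND1 and PND14. Of the pairs, 0 of 4 (female) and 1 of 3 (male) had an r above 0.1 at PND1, and 1 of 6 and 2 of 6 at PND14. At 3-Tri they were 4 of 6 and 3 of 6, with r up to 0.31 and 0.33, so a pairing there is not settled. With the replicate block 4 members were called in the PND1 male label (*Opcml* 0.28, adjusted p = 0.0178) and 4 over both, and 5 for saline PND14 minus PND1. At PND1 8.42% of genes were then called in the male label and 18.3% over both. The block with the GC and length correction left 0 in the male label (101 genes) and 3 over both (1502 genes). The block follows the replicate number alone and also joins libraries of different gender labels, so these counts say nothing about a pairing.

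Counts over all genes moved by more than 1.5 times as follows. PND1 male had 3124 calls, 1225 with the GC correction, 1828 with the block, 2066 with only the groups compared and 546 without hindbrain libraries, and leaving out 1 library gave from 1861 (male morphine replicate 9) to 4944 (male morphine replicate 5), with 1998 without male morphine replicate 10 and 2022 and 2018 without male saline replicates 10 and 11. PND1 over both labels had 3653, and 1947, 1502 and 2031 with the GC correction, the block with it and no hindbrain libraries. PND1 female had 0, and 13 without hindbrain libraries, 8 without female saline replicate 7 and 1 without the filter or with the block. PND14 over both had 332, and 657 with DESeq2, 98 with the block, 158 with block and GC correction, 644 with the ID number as a random effect, and 97, 7 and 0 when the libraries of 1 of 3 ID numbers were left out. PND14 male had 55, and 203, 85, 31, 124 and 101 with DESeq2, the GC correction, the block, only the groups compared and the random effect, and 7, 0 and 0 without the same numbers. PND14 female had 0, and 22 with DESeq2 and 4, 17 and 1 without 1 of 3 ID numbers. At 3-Tri 1 gene was called in each label without 1 ID number, and at PND1 1 gene for the male minus female difference with the block. The drug effect of PND14 minus PND1 had 2931, and 1716 with the GC correction. That of 3-Tri minus PND1 had 1855, and 1124 with no filter, 50 without libraries against their sex label, 1022 with the GC correction and 1229 without hindbrain libraries. That of 3-Tri minus PND14 had 40, and 25, 74, 2, 0 and 25 with no filter, DESeq2, and without low depth, sex-label and hindbrain libraries.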
